A study of Mus musculus with 16 samples.

Results

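The genes of DNA replication and mitosis were followed through 12 RNA libraries of cultured mouse germline stem cells (GSCs), a cultured counterpart of the stem cells that sustain sperm production. Members were the rows listed under a fixed set of 44 gene symbols, and 43 were found among the 27128 genes of the tables: 23 replication genes and 20 mitosis genes. The remaining symbol, Gins2, was not listed; the RefSeq transcript of that gene sat on a row under the older name 4833427B12Rik, at 19.6 to 30.2 counts per 1000000 counts of the library (CPM), and was kept apart. All 43 members passed a filter that asked for a 12-library mean of 1 CPM or more and left 14301 genes, and the lowest mean of a member was 28.9 CPM.

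The study compared GSC cultures in 4 experiments. All of them started from B6;CBA-Tg(Pou5f1-EGFP)2Mnn/J mice at postnatal day 5.5, in which the Pou5f1 (Oct4) promoter drives green fluorescent protein (GFP). GFP-positive germ cells lacking KIT, a receptor of differentiating spermatogonia, were sorted and grown in StemPro-34 serum-free medium with the growth factors GDNF, bFGF and EGF, and were passaged weekly. RNA from each culture was amplified by a modified Smart-seq2 procedure. In the feeder-removal experiment the libraries came from cells on a layer of mouse embryonic fibroblasts (MEF, day 0) and from cells 4 and 9 days after transfer to Matrigel, a basement membrane extract. In the Matrigel density experiment the culture on 0.1 µg/cm2 was epithelial-like and the one on 10 µg/cm2 mesenchymal-like. In the sorting experiment, cells grown at 10 µg/cm2 were sorted by GFP brightness into a low, a mid and a high fraction. In the inhibitor experiment, cells on MEF received the solvent DMSO or UNC0638, an inhibitor of the histone methyltransferase G9a, at 0.5, 1 or 2 µM for 48 hours. Whether the feeder cells were dividing is not stated in the labels. With 1 library per group the differences lack any check by replicates, and p-values are not given.

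Before a cell copies its DNA, Cdc6 and Cdt1 load the ring-shaped Mcm2 to Mcm7 helicase at origins, and Mcm10 and the GINS complex help to turn it into a moving fork. Polymerases with the clamp Pcna, its loader and the ligase Lig1 then build the new strands from nucleotides made by ribonucleotide reductase (Rrm1 with Rrm2) and thymidylate synthase (Tyms). Replication genes are classic targets of E2F factors, which bind GC-rich sites, while many mitosis genes carry a cell cycle homology region (CHR), often next to CCAAT boxes bound by NF-Y. Through the CHR the DREAM complex represses them in resting cells, and MuvB with B-MYB (Mybl2) and FOXM1 activates them late in the cycle. Spermatogonia divide by mitosis, and GSCs depend on continued division to be propagated.

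The promoters of the members differ in these sites, and 6 are shown because their genes carry the results below: helicase and licensing genes (Mcm5, Mcm6, Cdc6), and a spindle motor, an activator of mitotic exit and a proliferation marker (Kif11, Cdc20, Mki67). Each line gives the 250 bases before the annotated start from RefSeq, build GRCm38.p6, read 5′ to 3′ on the strand of the gene, with motif matches in capitals.
Mcm5 (chr8:75109259-75109508, plus strand): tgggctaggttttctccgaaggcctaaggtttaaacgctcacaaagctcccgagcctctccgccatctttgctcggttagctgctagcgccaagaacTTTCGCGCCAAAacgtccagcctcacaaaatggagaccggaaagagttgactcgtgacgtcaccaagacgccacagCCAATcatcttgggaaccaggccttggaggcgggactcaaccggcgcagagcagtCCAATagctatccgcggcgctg
Mcm6 (chr1:128359706-128359955, minus strand): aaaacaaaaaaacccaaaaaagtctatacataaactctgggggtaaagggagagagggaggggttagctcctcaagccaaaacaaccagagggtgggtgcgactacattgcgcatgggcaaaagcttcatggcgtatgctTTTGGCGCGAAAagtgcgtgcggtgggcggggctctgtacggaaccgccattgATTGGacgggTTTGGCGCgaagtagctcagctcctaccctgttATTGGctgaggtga
Cdc6 (chr11:98907901-98908150, plus strand): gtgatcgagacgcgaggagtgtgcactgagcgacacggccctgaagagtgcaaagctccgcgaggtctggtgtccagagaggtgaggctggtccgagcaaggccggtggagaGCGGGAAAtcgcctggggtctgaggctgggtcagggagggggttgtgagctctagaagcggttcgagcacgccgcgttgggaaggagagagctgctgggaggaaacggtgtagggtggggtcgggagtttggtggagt
Kif11 (chr19:37376132-37376381, plus strand): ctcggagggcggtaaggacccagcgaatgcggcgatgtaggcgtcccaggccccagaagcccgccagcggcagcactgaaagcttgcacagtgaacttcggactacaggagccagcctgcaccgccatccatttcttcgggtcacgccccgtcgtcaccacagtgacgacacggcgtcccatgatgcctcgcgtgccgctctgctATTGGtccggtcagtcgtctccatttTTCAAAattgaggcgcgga
Cdc20 (chr4:118437344-118437593, minus strand): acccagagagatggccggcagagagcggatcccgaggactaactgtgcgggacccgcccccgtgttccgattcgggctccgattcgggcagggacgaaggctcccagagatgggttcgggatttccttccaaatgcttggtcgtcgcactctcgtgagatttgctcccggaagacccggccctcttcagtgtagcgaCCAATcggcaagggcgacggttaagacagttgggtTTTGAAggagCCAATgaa
Mki67 (chr7:135716380-135716629, minus strand): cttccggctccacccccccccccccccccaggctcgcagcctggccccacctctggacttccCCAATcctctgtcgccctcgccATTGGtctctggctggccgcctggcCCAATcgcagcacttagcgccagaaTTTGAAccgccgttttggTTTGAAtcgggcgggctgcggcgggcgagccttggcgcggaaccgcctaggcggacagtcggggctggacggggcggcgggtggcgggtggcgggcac

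The capitals mark E2F letters in Mcm5, Mcm6 and Cdc6, a CHR in Kif11, Cdc20 and Mki67, and CCAAT in every one but Cdc6. The E2F letters searched were TTTCCCGC, TTTCGCGC, TTTGCCGC and TTTGGCGC, and those of the CHR were TTTGAA and TTCGAA, on both strands; TTCGAA reads the same on either strand, and neighbouring E2F matches can overlap, as in Mcm5 and Mcm6. The window searched held 250 bases before and 50 after the start, and 36 members had an entry, 19 for replication and 17 for mitosis.

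E2F letters stood in 9 of 19 replication promoters (47.4%) and in 0 of 17 mitosis promoters. They stood in 2.6% of the 27025 genes with an entry and in 4.68% of the 8095 genes tested that had one. Each gene counted once, with a match if any of its windows held one. The 9 were Cdc6, Cdt1, Mcm3, Mcm5, Mcm6, Mcm7, Pola1, Pold1 and Lig1. A CHR stood in 12 of 17 mitosis promoters (70.6%) and in 3 of 19 replication promoters (15.8%). Of all genes with an entry 21.7% had one, and of those tested 16.3%. Each of those 12 mitosis promoters also held CCAAT, a pairing found in 9.65% of all genes with an entry and 8.2% of those tested. A match is a description of letters, not a measured binding site, and a window without a match says nothing of the factor.

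Depth and cell markers were uneven between experiments. Library totals ran from 4335210 to 12019672 expected counts, the lowest count of a member in any library was 111, and 3 counts, the smallest level read here, were 0.238 to 0.725 CPM. The germ cell genes Ddx4 and Dazl stood between 417 and 2065 CPM in every library, and all 19 germ cell markers were above 0 throughout. Pou5f1 followed the sort, with 83.2 CPM in GFP-low, 177 CPM in GFP-mid and 367 CPM in GFP-high. Transcripts of other cell types varied widely: 20 fibroblast markers summed to 177 to 7520 CPM, with the mesenchymal-like and DMSO libraries highest, and 10 myeloid markers summed to 10 to 45.5 CPM except in the sorted fractions.

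All members were detected in every library. Summed TPM, a level per transcript length, was 2710 to 3919 for the replication genes and 1724 to 3570 for the mitosis genes. By summed TPM the mesenchymal-like library was lowest and the day 9 library highest for both groups. By summed CPM this held for the mitosis genes only. For the replication genes GFP-high was then lowest (4663 CPM) and GFP-low highest (5848 CPM). In TPM, mitosis genes summed to 0.92, 0.89 and 0.91 of the replication genes in the 3 feeder-removal libraries and to 0.64 to 0.78 in the other 9. Experiment and batch cannot be told apart here.

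**Figure D1:**
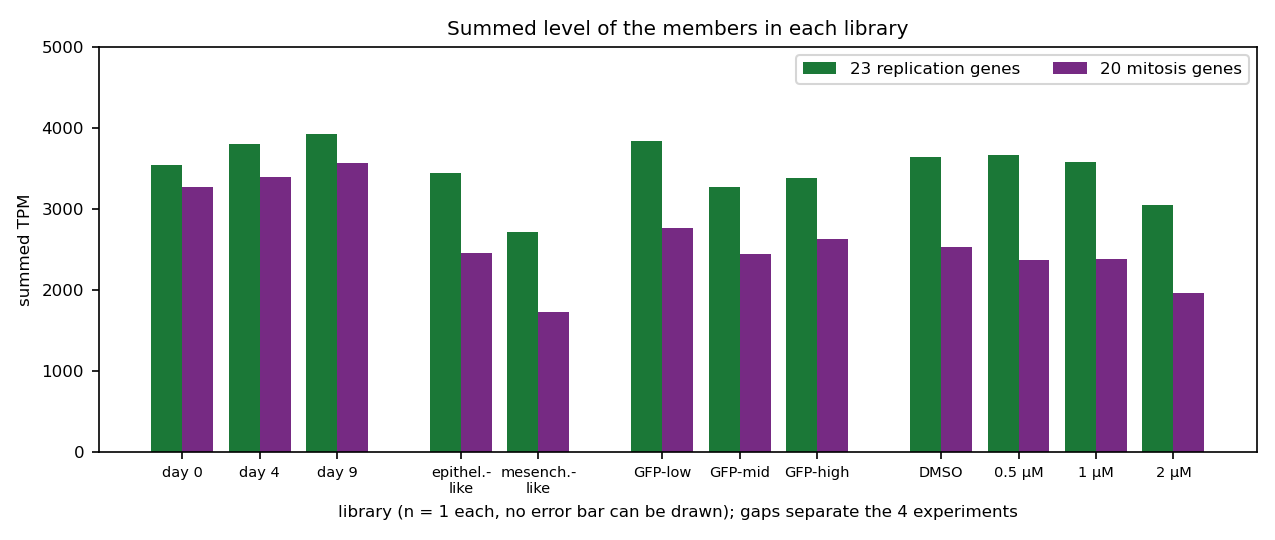
Summed TPM of the 23 replication genes and the 20 mitosis genes in each of the 12 libraries, 1 bar per group and library; the vertical axis starts at 0. The mitosis bar comes closest to the replication bar in the 3 feeder-removal libraries and both are lowest in the mesenchymal-like library, at 2710 and 1724.

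Per length, the highest replication gene of each library was a subunit of the clamp loader, the clamp or a helicase subunit. Rfc4, a subunit of the clamp loader, was the highest replication gene at days 0, 4 and 9, with 406, 472 and 434 TPM, and stood at 183 to 282 TPM in the other libraries. Pcna stood between 290 and 428 TPM. The 6 helicase subunits, which assemble in equal numbers, were not at equal transcript levels: Mcm4 was lowest in every library (116 to 201 TPM), Mcm6 was highest in the feeder-removal libraries (358 to 393 TPM) and Mcm7 in the others (274 to 406 TPM). The highest subunit stood at 1.95 to 2.75 times the lowest.

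Regulators of S phase entry stood below the median of the replication genes in every library, as did Pola1, Cdc6 and Pole. Pola1 was the lowest replication gene in most libraries. E2f1, an E2F factor that switches on replication genes, stood at 19.1 to 57.5 TPM and Ccne1, a cyclin that drives S phase entry, at 15.7 to 32.0 TPM. Its paralog Ccne2 had the widest CPM range of the 43 members over the 12 libraries (3.54-fold). It stood at 56.2, 54.4 and 67.4 TPM at days 0, 4 and 9 and at 16.8 to 29.8 TPM elsewhere. Ccne2 was thus at 2.87 to 3.59 times Ccne1 in the feeder-removal libraries and at 0.57 to 1.05 times in the others. Rrm1 exceeded Rrm2, its partner in ribonucleotide reductase, by 1.29 to 4.26 times.

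Among the mitosis genes the cyclin Ccnb1, which activates Cdk1, and Cdc20, which directs the anaphase-promoting complex, were the most abundant. Ccnb1 stood at 211 to 474 TPM outside the feeder-removal experiment and at 533 to 610.0 TPM within it, and Cdc20 at 255 to 513 TPM over all 12. Mki67, which encodes the proliferation marker Ki-67, was the scarcest mitosis gene, at 7.35 to 24.1 TPM. Top2a, the topoisomerase that untangles sister chromosomes and another usual marker of dividing cells, stood at 102 to 224 TPM, and was at 23.05 times Mki67 at day 0 and 4.53 times at 2 µM UNC0638. RSEM divided reads with other genes in all 12 libraries for Tyms, Ccnb1 and Cenpf, as counts that were not whole show, and Mki67 was counted on 1 predicted RefSeq transcript of 10117 bases.

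Differences between conditions were small. Each was taken as the log2 ratio of CPM + 1 between 2 libraries of an experiment, and no member reached 2-fold (1 on the log2 scale) in any of the 8 comparisons. Over all genes tested, 2-fold was reached by 2.31% at day 4 and 2.59% at day 9 against day 0, 12.7% in the mesenchymal-like against the epithelial-like library, 4.13% in GFP-mid and 9.66% in GFP-high against GFP-low, and 3.7%, 6.66% and 7.05% at 0.5, 1 and 2 µM against DMSO. Low genes make up part of these shares: among the 9599 genes averaging 10 CPM or more, where all members lie, the shares were 0.313%, 0.865%, 7.26%, 2.94%, 6.58%, 0.99%, 3.17% and 2.98% in the same order. The ratios carry 95% Clopper-Pearson intervals of the read split, which cover the counting error of reads only. Amplified reads are not independent molecules, so the intervals can be narrower than the counting error of molecules.

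**Figure D2:**
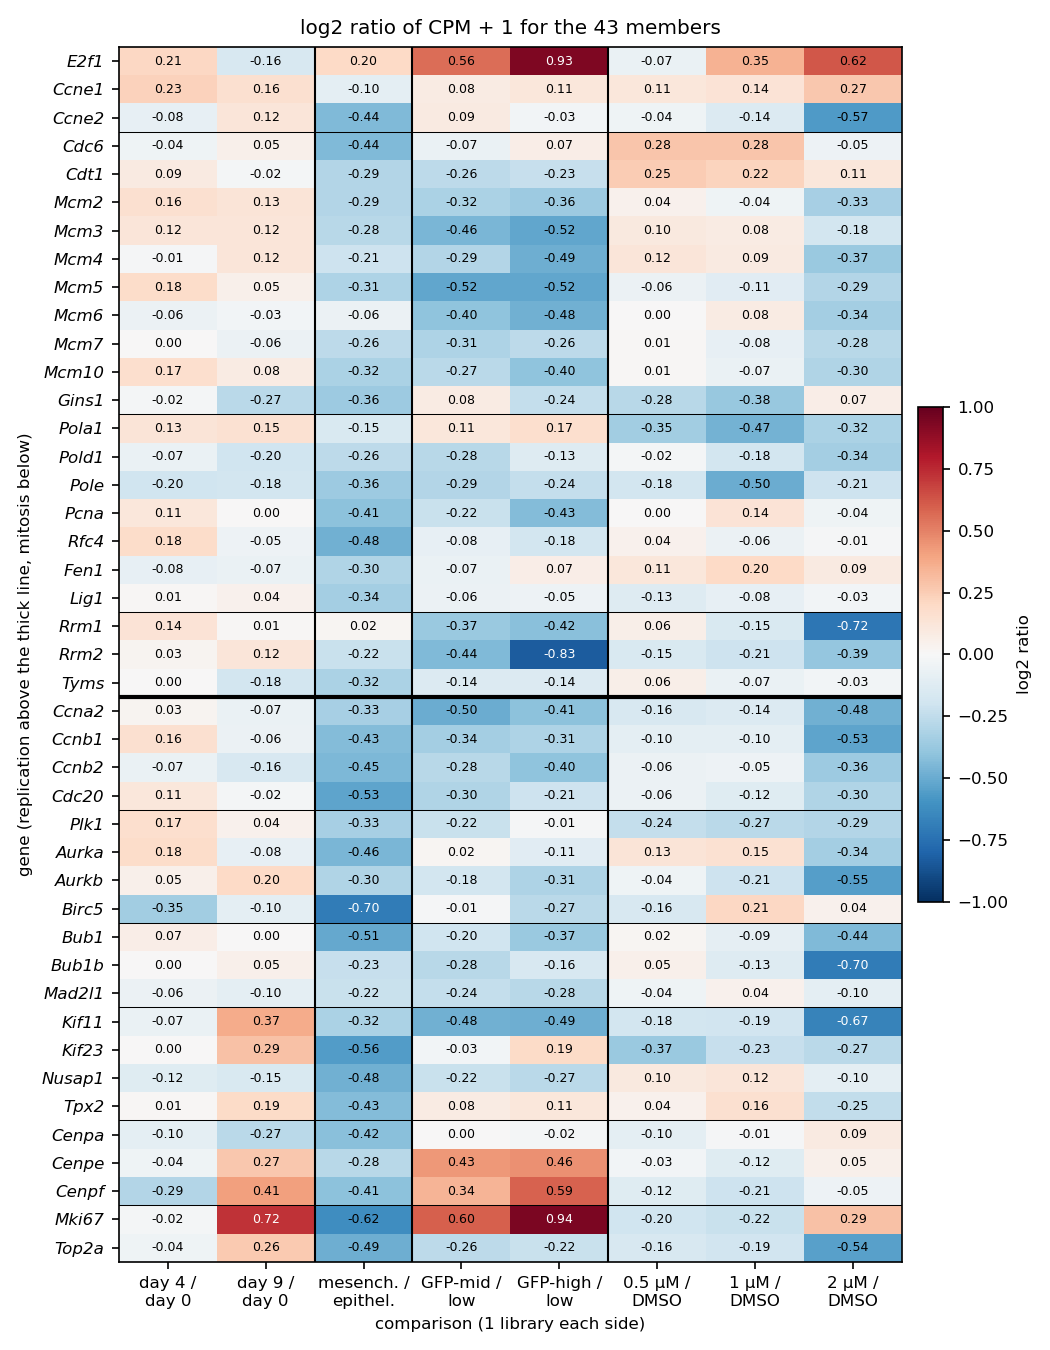
Log2 ratio of CPM + 1 for each of the 43 members (rows, ordered by role) in the 8 comparisons (columns), 1 library on each side; red is higher and blue lower in the first-named library. The columns for the mesenchymal-like, GFP and 2 µM libraries are mostly blue, while E2f1 and Mki67 are red at GFP-high with 0.93 and 0.94.

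Removal of the feeder layer left the members close to their levels on MEF. At day 4 the median log2 ratio was 0.03 for replication and -0.01 for mitosis genes, and at day 9 it was 0.01 and 0.02, beside 0.01 over all genes at both times. At day 4, 9 of 23 replication and 11 of 20 mitosis genes were below their day 0 level, where 47.8% of all genes were. At day 9 the counts were 11 and 10, where 48.4% of all genes were. With deposited TPM they were 5 and 3 at day 9, where 32.4% of all genes were lower and their median was 0.13. Only Birc5 was at least 1.25-fold lower at day 4, where 13.7% of all genes were, and no member at day 9, where 15.6% were. The 1.25-fold threshold was chosen after values were seen.

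Birc5, which encodes survivin of the chromosomal passenger complex, stood at 95.6, 74.8 and 89 CPM at days 0, 4 and 9. It was thus lowest at day 4 (log2 ratio -0.35, interval -0.50 to -0.21) and back near its first level at day 9 (-0.10). Replication genes were spread narrowly at both times, from -0.20 for the polymerase gene Pole to 0.23 for Ccne1 at day 4 and from -0.27 for Gins1 to 0.16 for Ccne1 at day 9.

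A few mitosis genes stood higher at day 9. Mki67 was at 45.6, 44.9 and 75.6 CPM at days 0, 4 and 9, a log2 ratio of 0.72 at day 9 (interval 0.55 to 0.91). Cenpf, a kinetochore protein, was at 245, 200 and 325 CPM (0.41), and Kif11, the motor that pushes spindle poles apart, at 196, 187 and 254 CPM (0.37). These 3 were the members at least 1.25-fold higher, where 17.7% of all genes were; Kif23, a motor of cytokinesis (0.29), and Cenpe, a kinetochore motor (0.27), came next. Cenpa, the centromeric histone, was lower at day 9 with 192, 180 and 159 CPM (-0.27). In bulk RNA, fewer cells of a type and less RNA per cell cannot be told apart.

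Several of the genes that were higher have long transcripts, and transcript length moved with the ratios of all genes at day 9. Among genes averaging 10 CPM or more, the median was -0.20 up to 1500 bases, -0.02 up to 3000, 0.08 up to 5000, 0.17 up to 7000 and 0.29 in the 459 genes over 7000 bases. The 4 members over 7000 bases were Mki67, Cenpf, Cenpe and Pole, with a median of 0.34. At day 4 the longest class was at -0.01. The part of length in these members' ratios was not tested.

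**Figure D3:**
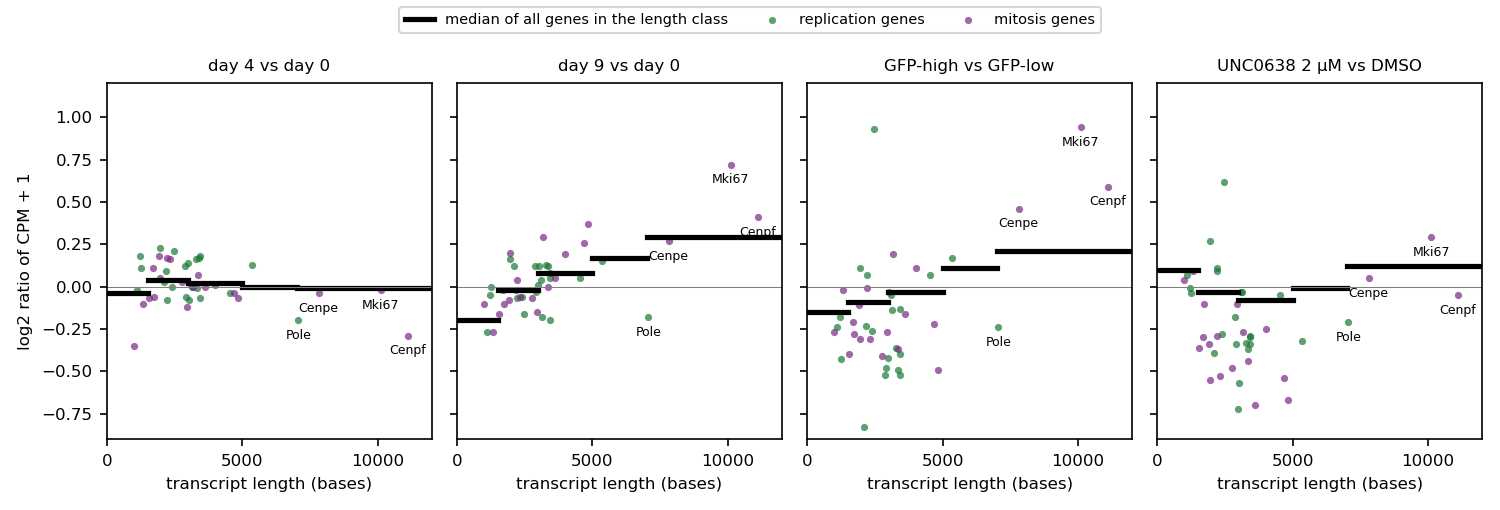
Log2 ratio of CPM + 1 of each member against the transcript length in the tables, in 4 comparisons; black bars are medians over all genes averaging 10 CPM or more, in 5 length classes. The bars lie higher at greater length at day 9, from -0.20 to 0.29, and in GFP-high, from -0.15 to 0.21, and Mki67 and Cenpf lie above them there.

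The mesenchymal-like culture had lower levels of nearly every member than the epithelial-like culture. All 20 mitosis genes and 21 of 23 replication genes were lower, where 53.2% of all genes were, and 16 mitosis and 8 replication genes were at least 1.25-fold lower, where 22.7% were. The median log2 ratio was -0.43 for mitosis and -0.29 for replication genes, beside -0.04 over all genes tested. Among genes averaging 10 CPM or more, 58.2% were lower and 20.2% at least 1.25-fold lower.

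Mitosis genes of every role were lower. Birc5 was at 109 CPM in the epithelial-like and 67 CPM in the mesenchymal-like library (-0.70, interval -0.92 to -0.49), and Mki67 at 155 and 101 CPM (-0.62). Kif23 was at 96.8 and 65.3 CPM (-0.56), Cdc20 at 401 and 278 CPM (-0.53) and the checkpoint kinase gene Bub1 at 135 and 94.5 CPM (-0.51). The smallest differences were those of the checkpoint genes Mad2l1 (-0.22) and Bub1b (-0.23).

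Replication genes were lower by less. The clamp loader gene Rfc4 was at 193 and 138 CPM (-0.48), Cdc6 at 76.4 and 56.1 CPM (-0.44) and Pcna at 303 and 228 CPM (-0.41). The helicase subunits other than Mcm6 lay between -0.31 for Mcm5 and -0.21 for Mcm4, and Mcm6 was at 412 and 396 CPM (-0.06). E2f1 was at 48.8 and 56.1 CPM (0.20, interval -0.07 to 0.48) and Rrm1 at 329 and 333 CPM (0.02), and these were the only members not lower.

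Other cell markers moved with these differences. The 20 fibroblast markers summed to 374 CPM in the epithelial-like and 7520 CPM in the mesenchymal-like library, with all 20 higher and a median of 4.29, and Col1a1 alone stood at 83.1 and 2380 CPM. The germ cell markers were lower in 18 of 19, with a median of -0.28, close to that of the replication genes. With ratios centred on the germ cell markers, the medians were -0.01 for replication and -0.15 for mitosis genes. The part of fibroblast-type RNA in the lower levels was not tested beyond that centring, under which 14 of 23 replication and 18 of 20 mitosis genes were lower, where 26.7% of all genes were and their median was 0.24.

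**Figure D4:**
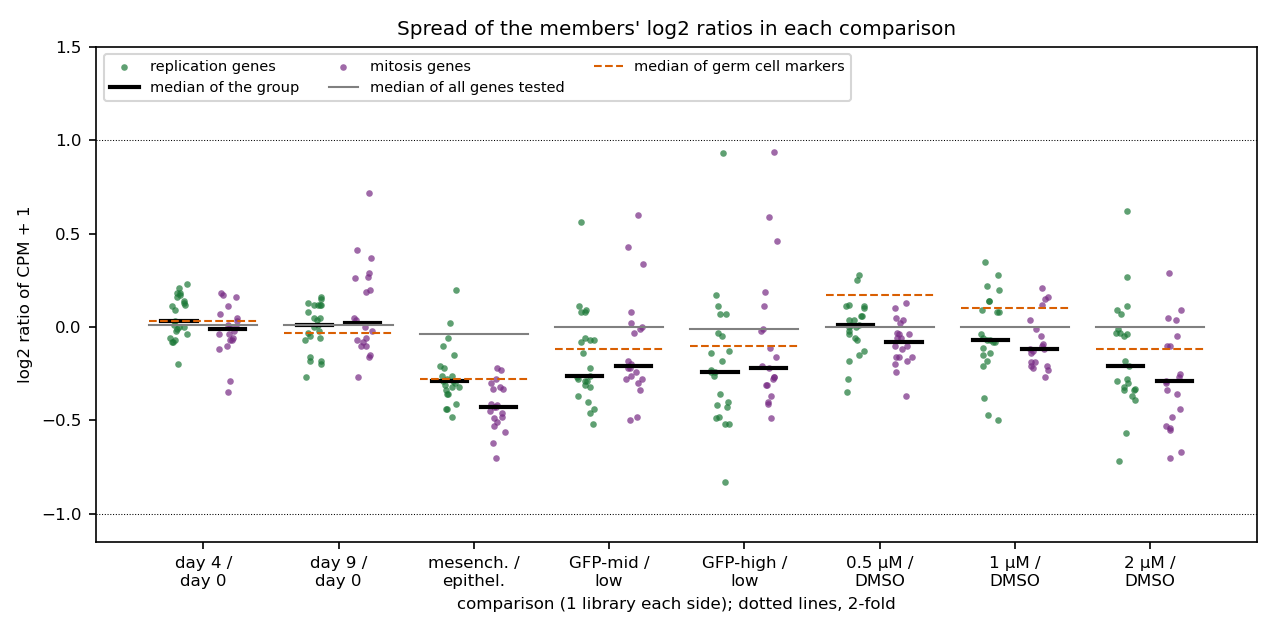
Log2 ratio of CPM + 1 of every member in each comparison, replication and mitosis genes side by side (1 point per gene, shifted sideways at random to avoid overlap), with the medians of each group, of all genes tested and of the germ cell markers. In the mesenchymal-like comparison the mitosis median of -0.43 lies below the germ cell marker median of -0.28, and the replication median of -0.29 lies on it.

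Most members were lower in the GFP-mid and GFP-high fractions than in GFP-low, while a small set was higher. In GFP-mid, 18 of 23 replication and 15 of 20 mitosis genes were below GFP-low, where 49.9% of all genes were, with medians of -0.26 and -0.21. GFP-high gave 18 and 15 again, where 50.5% of all genes were, with medians of -0.24 and -0.22; the fractions share the GFP-low library, so these counts are not independent. Among genes averaging 10 CPM or more, 55.8% were lower in GFP-mid and 56.4% in GFP-high. With deposited TPM 15 replication and 12 mitosis genes were lower in GFP-high, where 39.3% of all genes were. Their medians were then -0.10 and -0.08, beside 0.11 for all genes. Centred on germ cell markers, 14 and 12 were lower in GFP-mid, where 36.5% of all genes were, with medians of -0.14 and -0.09 beside 0.12 for all genes. The centred medians in GFP-high were -0.13 and -0.11, beside 0.10 for all genes. At least 1.25-fold lower were 6 and 3 members in GFP-mid, where 15.8% of all genes were, and 9 and 4 in GFP-high, where 22.6% were.

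Genes of ribonucleotide reductase, the helicase and the clamp were lower in both brighter fractions. Rrm2, the small subunit of the reductase, was at 123, 90.8 and 68.7 CPM in GFP-low, GFP-mid and GFP-high (-0.83 for GFP-high, interval -0.99 to -0.70), and Rrm1 at 468, 361 and 348 CPM (-0.42). Mcm5 was at 561, 392 and 391 CPM (-0.52), Mcm3 at 626, 455 and 436 CPM (-0.52) and Mcm4 at 354, 289 and 251 CPM (-0.49). Pcna was at 289, 249 and 215 CPM (-0.43). All 6 helicase subunits were lower in both fractions. The 7 polymerase, clamp and ligation genes had a median of -0.13 in GFP-high, with Pole at -0.24, Rfc4 at -0.18, Pold1 at -0.13, Lig1 at -0.05, Fen1, the flap nuclease of lagging strands, at 0.07 and Pola1 at 0.17.

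Mitotic cyclins were lower too. Ccna2, a cyclin of both S phase and mitosis, was at 380, 269 and 285 CPM (-0.41 in GFP-high), Ccnb2 at 168, 138 and 127 CPM (-0.40) and Kif11 at 159, 113 and 112 CPM (-0.49). GFP-low was the high library for each, and the other 2 fractions lay close together for Ccna2 and Kif11. CPM stood in the order GFP-low, GFP-mid, GFP-high from high to low for 10 of 23 replication and 8 of 20 mitosis genes, where 26% of all genes did. The 10 were Mcm2, Mcm3, Mcm4, Mcm5, Mcm6, Mcm10, Pcna, Rfc4, Rrm1 and Rrm2.

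The opposite order, from low to high, held for 3 replication and 4 mitosis genes, where 25.2% of all genes followed it. E2f1 was at 38.4, 57.3 and 74.2 CPM (0.93 in GFP-high, interval 0.75 to 1.15) and Mki67 at 67.1, 103 and 130 CPM (0.94, interval 0.80 to 1.10). Both stayed just under 2-fold here and passed it, at 1.01 to 1.06, with total counts, deposited TPM or germ cell centring. Cenpf was at 167, 212 and 252 CPM (0.59) and Cenpe at 105, 142 and 144 CPM (0.46). E2f1, Mki67, Cenpf and Cenpe were the members at least 1.25-fold higher in GFP-high, where 27.5% of all genes were, and E2f1 thus ran opposite to the helicase genes in the same libraries.

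Length and other cell markers moved with the sort as well. Genes over 7000 bases had a median of 0.16 in GFP-mid and 0.21 in GFP-high, and the 4 long members 0.39 and 0.53; E2f1, at 2460 bases, is not among them. The 10 myeloid markers summed to 1815, 1621 and 214 CPM from GFP-low to GFP-high, with Lyz2 at 1511, 1357 and 183 CPM, and all 10 were at least 2-fold lower in GFP-high. The 20 fibroblast markers summed to 177, 214 and 331 CPM, and in GFP-high 14 were higher, 9 of them at least 2-fold, with a median of 0.73. The 7 markers of differentiating spermatogonia had a median of 1.06 in GFP-high, with 6 higher and Sohlh2 lower (-0.53). Kit was at 61.8, 74.5 and 130 CPM. The 10 markers of undifferentiated spermatogonia had -0.89, with 8 lower and 2 at least 2-fold higher, the highest being Pou5f1 (2.13). Their part in the members' ratios was not tested.

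**Figure D5:**
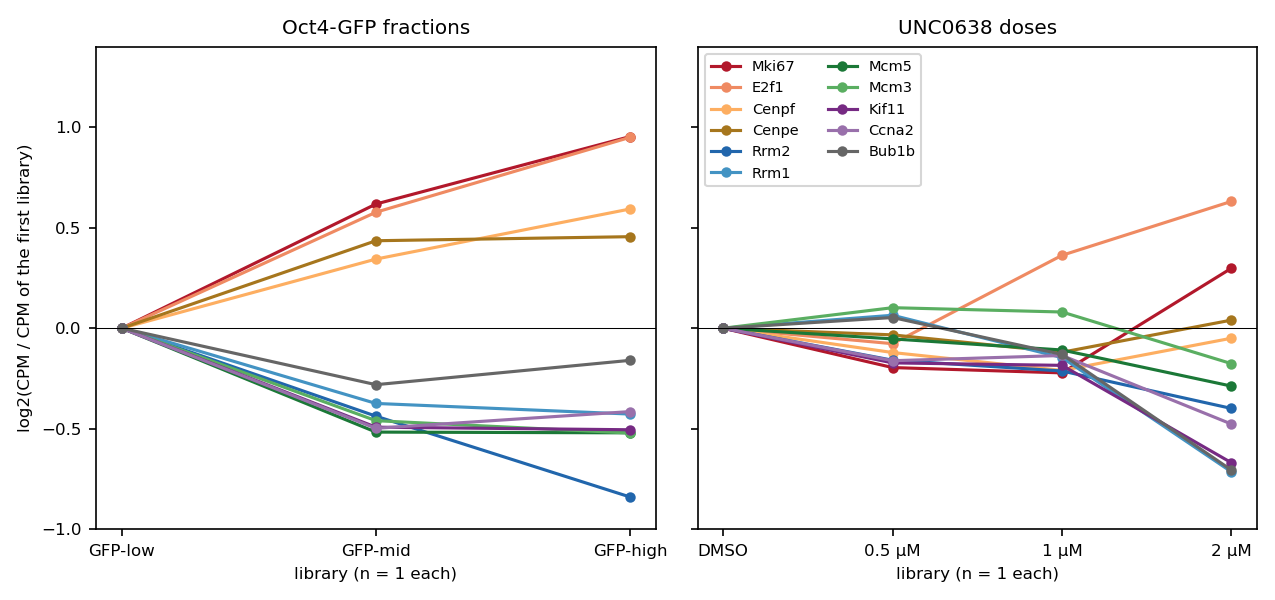
Log2 of the CPM of 11 members over the CPM of the first library of the series, along the GFP fractions (left) and the UNC0638 doses (right), 1 library per point. In GFP-high, Mki67 and E2f1 stand at 130 and 74.2 CPM and Rrm2 at 68.7 CPM, and at 2 µM E2f1 is the highest of the 11 lines and Rrm1, Bub1b and Kif11 the lowest.

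By CPM, more members were below DMSO at 2 µM UNC0638 than at the lower doses. The medians for replication and mitosis genes were 0.01 and -0.08 at 0.5 µM, -0.07 and -0.12 at 1 µM, and -0.21 and -0.29 at 2 µM. Below DMSO were 10 of 23 replication and 15 of 20 mitosis genes at 0.5 µM, where 50.4% of all genes were, and 14 and 15 at 1 µM, where 50.4% of all genes were again. At 2 µM the counts were 18 and 16, where 49.3% were. Centred on germ cell markers, 21 replication and 20 mitosis genes were lower at 0.5 µM, 17 and 16 at 1 µM, and 13 and 13 at 2 µM. That centring shifts every gene of a comparison alike: the shares of all genes below 0 were then 72.8%, 63.3% and 37.6%, and their medians -0.17, -0.10 and 0.12. The centred medians of replication and mitosis genes were -0.16 and -0.25, -0.17 and -0.22, and -0.08 and -0.17 in the same order of doses. At least 1.25-fold lower were 1 and 1 at 0.5 µM (17% of all genes), 3 and 0 at 1 µM (19.3%) and 8 and 9 at 2 µM (21.9%). The 3 doses share the DMSO library. The 2 µM library was the lowest of the 4 for 13 replication and 14 mitosis genes, where 29.2% of all genes had it lowest.

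Rrm1 was at 394, 412, 356 and 240 CPM with DMSO and 0.5, 1 and 2 µM, so that only the highest dose stood apart (-0.72, interval -0.83 to -0.61). Rrm2 was at 153, 137, 132 and 116 CPM (-0.39 at 2 µM), with no such step. Ccne2 was at 46.4, 45.2, 41.9 and 30.9 CPM (-0.57), while its paralog Ccne1 was at 27.9, 30.1, 30.8 and 33.9 CPM (0.27, interval -0.06 to 0.63). The helicase subunits were between -0.18 for Mcm3 and -0.37 for Mcm4 at 2 µM and between -0.11 and 0.12 at the lower doses.

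Several mitosis genes also had their lowest CPM at 2 µM. The checkpoint kinase gene Bub1b was at 266, 276, 243 and 163 CPM (-0.70, interval -0.84 to -0.57) and Kif11 at 133, 118, 117 and 83.6 CPM (-0.67). Aurkb, the kinase of the passenger complex, was at 107, 104, 92.7 and 73.1 CPM (-0.55), Top2a at 464, 417, 408 and 319 CPM (-0.54) and Ccnb1 at 427, 398, 398 and 295 CPM (-0.53). In each the 3 other libraries lay nearer to each other than to the 2 µM library. Birc5, the partner of Aurkb, was at 82.8, 74.2, 96 and 85 CPM and showed no such order.

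Some members were higher or went their own way with dose. E2f1 was at 34.6, 32.8, 44.5 and 53.6 CPM (0.35 at 1 µM and 0.62 at 2 µM, interval at 2 µM 0.34 to 0.92). Mki67 was at 126, 110, 108 and 155 CPM (0.29 at 2 µM, interval 0.14 to 0.46). The 2 licensing factors were higher at the lower doses, Cdc6 at 62.9, 76.5, 76.4 and 60.6 CPM and Cdt1 at 218, 259, 255 and 236 CPM. A pair of polymerase genes was lowest at 1 µM. Pole, the catalytic subunit of the leading-strand polymerase, was at 157, 138, 110 and 136 CPM (-0.50 at 1 µM) and Pola1, of the priming polymerase, at 47.5, 37.1, 34.1 and 37.8 CPM (-0.47).

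Fibroblast markers moved with the inhibitor from its lowest dose on. Their sum was 3670, 1352, 578 and 749 CPM, with medians of -1.30, -2.59 and -2.10, and Col1a1 was at 1084, 303, 137 and 151 CPM. The germ cell markers had medians of 0.17, 0.10 and -0.12. In the feeder-removal libraries the fibroblast markers summed to 423, 412 and 408 CPM at days 0, 4 and 9. The part of fibroblast-type RNA in the members' differences from DMSO was not tested.

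Members were also grouped by promoter letters. At 2 µM the 9 members with E2F letters had a median of -0.28 and the 27 without had -0.27, and in GFP-high these were -0.23 and -0.21. In the mesenchymal-like library they were -0.28 and -0.41. The 15 with a CHR had -0.42 in that library, against -0.29 for the 21 without, and -0.30 at 2 µM against -0.10. In GFP-high the order was the opposite, with -0.16 against -0.27. The 9 are all replication genes and 12 of the 15 are mitosis genes, so letters and process overlap in large part. The 3 replication genes with a CHR, Mcm2, Mcm7 and Fen1, stood at -0.29, -0.26 and -0.30 in the mesenchymal-like library. At 2 µM they stood at -0.33, -0.28 and 0.09. The part of letters apart from process was not tested.

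The 2 MEF cultures without inhibitor, DMSO and day 0, came from different experiments and differ in no labelled treatment other than the solvent. Below day 0 in DMSO were 17 of 20 mitosis genes (median -0.29) and 9 of 23 replication genes (0.04), where 50.1% of all genes were. The mitosis median in this pair was thus as low as that at 2 µM UNC0638 against DMSO. Ccne2 (-1.10) and Mki67 (1.44) were 2-fold apart, 2 of 43 members where 19.4% of all genes were. Day 0 and DMSO gave 45.6 and 126 CPM for Mki67, and 133 and 66.8 CPM for Nusap1, a spindle protein (-0.99). The range of Mki67 between these MEF cultures was thus larger than its difference in any of the 8 comparisons. The germ cell markers had a median of -0.50 in this pair, with 15 of 19 lower, the 10 markers of undifferentiated spermatogonia one of 1.01 and the fibroblast markers one of 2.85. Genes over 7000 bases had a median of 0.55. Experiment and batch cannot be told apart.

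Further genes of both processes, outside the members, were listed as well. In the mesenchymal-like library 38 of 40 other replication genes (median -0.33) and 60 of 64 other mitosis genes (-0.38) were lower, where 58.2% of genes averaging 10 CPM or more were. At 0.5 µM UNC0638 19 of 40 (0.01) and 37 of 64 (-0.03) were lower, where 49.9% of such genes were, and at 1 µM 16 of 40 (0.05) and 29 of 64 (0.01), where 49.8% were. At 2 µM 24 of 40 (-0.06) and 49 of 64 (-0.19) were lower, where 50.7% of such genes were. In GFP-high they were 30 of 40 (-0.19) and 38 of 64 (-0.05), where 56.4% were. Prim2, a primase subunit, was at 121 CPM in GFP-low and 66.4 CPM in GFP-high (-0.85), and Kif4, a chromosome motor, at 52.7 CPM with DMSO and 28.8 CPM at 2 µM (-0.85). Cenpi, a centromere protein, was 2-fold lower in the mesenchymal-like library, with 32.5 and 15.5 CPM (-1.02, interval -1.52 to -0.63).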

How the data were processed

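RNA of 12 GSC libraries was analysed; the 4 ATAC libraries were not analysed here. Per the file headers, the authors deposited 3 values for each gene and library. The expected counts are RSEM's estimated counts, not normalized by the authors, per the file headers; the deposited TPM are scaled to length and library total; the deposited FPKM were not used. Trim Galore, RSEM and build mm10 come from the submitters' processing notes; aligner, annotation and versions are not given in the sources used here.

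Counts were rounded and scaled to CPM with TMM factors (edgeR 4.0.16, R 4.3.3). The filter kept genes averaging 1 CPM or more. Ratios are log2 of CPM + 1, which understates changes of low genes, and 2-fold was the threshold for a call. The 95% Clopper-Pearson intervals treat each pair of counts as a binomial split, with no pseudocount. Other genes named outside the members were, per comparison, up to 3 with the highest and 3 with the lowest ratio among those with at least 50 counts. The ratio and interval steps alone were tested, on simulated Poisson counts for the DMSO and 2 µM libraries with planted changes above 2-fold. Smaller planted changes and amplification were not simulated. Alternatives were DESeq2 1.42.0 size factors, total counts, TPM as deposited, a pseudocount of 0.1 or 5, removal of the filter or its rise to 10 CPM, and centring on germ cell markers; leaving out members over 7000 bases was chosen after seeing the data. Other software was Python 3.11.15 with scipy 1.17.1, matplotlib 3.10.9, pandas 2.3.3 and numpy 2.4.6. Promoters came from RefSeq, build GRCm38.p6, matched by symbol. The members and lists were chosen with earlier results of these data known.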

Additional observations from a re-analysis of the deposited data

How the results depend on the processing

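The medians of the 2 groups in the 8 comparisons were little moved by DESeq2 size factors, total counts, other pseudocounts and other filters. These shifts were smaller than the median half-width of a single member's counting interval, which is not the error of a median. With deposited TPM the day 9 medians were 0.15 for replication and 0.15 for mitosis genes, and those of GFP-high were -0.10 and -0.08; all genes moved too, to 0.13 at day 9 and 0.11 in GFP-high. Centred on germ cell markers, the medians for replication and mitosis genes were -0.01 and -0.15 in the mesenchymal-like library, -0.14 and -0.09 in GFP-mid and -0.16 and -0.25 at 0.5 µM UNC0638, and the replication median was -0.13 in GFP-high. The centring itself sets these shifts; the cause of the TPM shifts was not tested. Total counts moved the median of all genes in the mesenchymal-like library to -0.12. Of 344 ratios of members, 56 changed sign with germ cell centring, 32 with TPM, 17 with total counts, 4 with DESeq2 size factors, and 0 with another pseudocount or filter. E2f1 and Mki67 in GFP-high passed 2-fold with total counts (1.01 and 1.02), TPM (1.06 and 1.02) and germ cell centring (1.04 for both). Without the 4 members over 7000 bases, the 16 medians moved by less than that half-width of a single member. No paired analysis was possible because each RNA group had 1 library; the samples that share replicate numbers are ATAC libraries, not used here. Depth limited precision: the median half-width of a member's counting interval was 0.10 to 0.17 on the log2 scale.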

Other observations

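A pair of regulators outside the members stood higher in the mesenchymal-like, GFP-mid, GFP-high and 1 and 2 µM libraries, where most members were lower. Mybl2, which activates mitosis genes together with MuvB, was at 32.6 CPM in GFP-low, 69.7 CPM in GFP-mid and 72.6 CPM in GFP-high, 2-fold higher in both (1.08 and 1.13, the latter with a counting interval of 0.95 to 1.37). It was also 2-fold higher at 1 µM UNC0638, with 50.9 CPM for DMSO and 108 CPM (1.07), and stood at 75.9 CPM at 2 µM (0.57). Over all genes tested, 2-fold in either direction was reached by 4.13% in GFP-mid, 9.66% in GFP-high and 6.66% at 1 µM. In the mesenchymal-like library, where most mitosis genes were lower, Mybl2 was at 74 CPM against 49.2 CPM in the epithelial-like library (0.58).

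Wee1, the kinase that holds Cdk1 inactive before mitosis, was also higher there. It was at 152 CPM in the epithelial-like library and 242 CPM in the mesenchymal-like (0.67). From GFP-low to GFP-high it was at 110, 175 and 195 CPM (0.82 for GFP-high). With DMSO and 0.5, 1 and 2 µM it was at 144, 193, 266 and 201 CPM (0.88 at 1 µM and 0.48 at 2 µM). Among the doses both genes were highest at 1 µM, where the medians of replication and mitosis members were -0.07 and -0.12. At 2 µM, where those medians were -0.21 and -0.29, both genes were raised by less. At day 9 neither gene differed from day 0 beyond its counting interval (0.07 for Mybl2 and -0.04 for Wee1). At day 4 Wee1 was higher by 0.11 (interval 0.04 to 0.18) and Mybl2 stood at 0.02. Each value rests on 1 library, and both genes were followed across all comparisons after their values were seen.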
